A study of Mus musculus with 12 samples.

Results

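The genes described here serve protein folding in the endoplasmic reticulum (ER) and the unfolded protein response, the signalling that answers a load of unfolded protein there. They are 32 named genes, taken from a given list by matching each symbol to a row of the expression table, and all 32 were found among the 18497 named genes of that table. They fall into 8 chaperones and cochaperones, 6 lectins and disulfide-handling enzymes, 3 stress sensors, 4 transcription factors and effectors, 7 members of ER-associated degradation and 4 members of the translocation channel. RNA was measured in whole pituitary glands of adult male wild-type mice, strain F1 C57BL/6Jx129S1/SvlmJ, by sequencing total RNA freed of ribosomal RNA, with 1 library per gland. Zygotes had received either a let-7f-5p mimic (labelled Str - let7f, in a concentration called stress-relevant and not given as a number) or nuclease-free water as vehicle. Both kinds of embryo were carried by CD1 recipient dams, and each group held 6 glands. RNA was taken in the adult, the mimic itself was not measured in these glands, and no label says which animals shared a dam or litter.

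Secreted and membrane proteins enter the ER through the Sec61 channel, fold with the help of chaperones and disulfide isomerases, and are pulled back for degradation when folding fails. When unfolded protein accumulates, the chaperone BiP (Hspa5) leaves the sensors IRE1 (Ern1), PERK (Eif2ak3) and ATF6, which then raise chaperone genes through the factors XBP1, ATF4 and cleaved ATF6. Somatotrophs and lactotrophs of the anterior pituitary make growth hormone (Gh) and prolactin (Prl) in very large amounts, so the load of hormone passing through the ER is the setting in which these genes were read.

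The injected microRNA is shown because it defines the groups. Its sequence in the labels was the same as the mature mouse sequence of RefSeq (GRCm38.p6), which 2 loci encode, Mirlet7f-1 on the minus strand at chr13:48537889-48537910 and Mirlet7f-2 on the plus strand at chrX:151912353-151912374. Capitals mark the seed, bases 2 to 8.
let-7f-5p: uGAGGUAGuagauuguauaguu

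The promoters are shown because several of these genes share 1 element. It is part of what is known of this response, so its share is not separate from the choice of genes. RefSeq promoters (GRCm38.p6, 250 bases before to 50 bases after the start) were used for 26 of the 32 genes, all but Hyou1, Manf, Atf6, Derl1, Sec61a1 and Ssr2. The ER stress response element, searched as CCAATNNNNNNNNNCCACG on both strands, stood in 9 of these 26 genes (34.6%), against 39 of 32851 promoters of all genes (0.119%). The share of all genes counts promoters, the members' own among them. The element is textbook knowledge for promoters such as those of Hspa5, Hsp90b1 and Calr, and a match of letters is a description, not a proof of binding. In the Hspa5 promoter, chr2:34771840-34772139 on the plus strand, the match lay at -65 to -47 from the start, marked in capitals at the fixed letters.
Hspa5 promoter: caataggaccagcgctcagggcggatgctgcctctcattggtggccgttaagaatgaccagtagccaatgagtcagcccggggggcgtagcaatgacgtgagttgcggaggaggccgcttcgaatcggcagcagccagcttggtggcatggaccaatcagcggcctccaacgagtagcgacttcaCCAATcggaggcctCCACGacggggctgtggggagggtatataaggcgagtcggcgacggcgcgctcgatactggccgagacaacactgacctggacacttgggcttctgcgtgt

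The 10 matches of the 9 genes are set side by side below, each read 5′ to 3′ on the strand that holds the motif, with the 10 fixed letters in capitals. Hsp90b1 had 2 of them. They began no farther than -212 and ended no nearer than -26 from the start, 6 on the strand of the gene and 4 on the other.
Hspa5: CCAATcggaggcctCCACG
Hsp90b1 (-212 to -194): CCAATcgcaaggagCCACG
Hsp90b1 (-107 to -89): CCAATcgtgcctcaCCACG
Dnajc3: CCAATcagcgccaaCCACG
Calr: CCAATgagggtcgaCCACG
Canx: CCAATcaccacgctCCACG
Pdia6: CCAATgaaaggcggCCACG
Creld2: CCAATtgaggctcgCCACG
Syvn1: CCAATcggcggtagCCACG
Derl3: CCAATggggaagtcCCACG

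The related element II, searched as ATTGGNCCACG, stood in 2 of the 26 genes (7.69%) and in 12 of all promoters (0.0365%). These were Herpud1 and Dnajb11, neither of which held the first element, so no member's matches overlapped. Neither the core of the XBP1 element (TGACGTGG) nor the ATF4-CHOP element (TGATGCAAT) was found in these windows of the 26 genes, while 222 (0.676%) and 63 (0.192%) of all promoters held them.
Herpud1 element II: ATTGGgCCACG
Dnajb11 element II: ATTGGcCCACG

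The deposited values are normalised read counts per gene. Whole reads, recovered from them with each library's size factor, ranged from 26378308 to 37061136 per library. The tests cover the 18390 genes that reached a value of 10 in 6 or more libraries, all 32 members among them. The labelled tissue showed its defining hormones, and Gh took 9.30% to 11.6% of the normalised counts in mimic glands and 7.79% to 12.8% in vehicle glands. All 13 markers of the posterior lobe were detected too, at a mean log2 level of 7.44 to 8.07 in mimic glands and of 5.19 to 8.95 in vehicle glands. The mean log2 level of 79 ribosomal protein genes lay between 12.54 and 12.81 in mimic glands and between 12.50 and 12.97 in vehicle glands, highest in vehicle 3 and vehicle 4. In a whole gland, fewer cells of a type and less RNA per cell cannot be told apart.

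Together the 32 genes took 0.635% to 0.738% of the normalised counts in mimic glands and 0.670% to 0.712% in vehicle glands. Most were strongly expressed: 21 of 32 had a mean level above the 90th percentile of all genes tested. They also varied little from gland to gland. The median SD of their log2 level over the 12 glands was 0.12, against 0.20 for all genes, and 29 of 32 lay below the all-gene median. The 3 above it were Edem1, Derl3 and Sec61b. A comparison with other genes of the same high level was not made. Gh and Prl varied more, with SDs of 0.22 and 0.33.

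Levels between genes are compared as normalised counts per kilobase of the longest protein-coding transcript. Calreticulin (Calr), a lectin chaperone that holds glycoproteins during folding, stood highest of all, at 8532 ± 681 in mimic glands and 8135 ± 622 in vehicle glands (SD, n = 6 each). BiP (Hspa5), the ER member of the Hsp70 family, followed with 7488 ± 881 in mimic glands and 7776 ± 617 in vehicle glands. Hsp90b1, the ER member of the Hsp90 family, had 6903 ± 546 in mimic glands and 6954 ± 430 in vehicle glands. The ranges of mimic and vehicle glands overlapped for each of these genes.

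The lowest chaperone was Dnajb11, a BiP cochaperone of the DnaJ type, with 627 ± 72.3 per kilobase in mimic glands and 613 ± 33.0 in vehicle glands. Creld2, an ER protein with disulfide isomerase activity, was lowest among the folding enzymes, at 907 ± 62.6 in mimic glands and 892 ± 84.3 in vehicle glands. The sensors had means over all 12 glands of 510 for Atf6, 644 for Eif2ak3 and 673 for Ern1, or of 510, 1068 and 3572 per kilobase of the median transcript length. Among the factors, Xbp1 was highest, at 2945 ± 218 in mimic glands and 3045 ± 217 in vehicle glands, and the pseudokinase Trib3, a target of ATF4 and CHOP, lowest, at 56.6 ± 7.08 in mimic glands and 56.0 ± 6.42 in vehicle glands. The values are per gene and do not separate spliced from unspliced Xbp1 mRNA.

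In degradation, Herpud1, which organises the retrotranslocation complex, led with a mean of 2668 per kilobase over the 12 glands. Derl3, one of 3 derlins that help move proteins out of the ER, was lowest with 137. Of the translocation genes, Ssr2, a subunit of the complex beside the Sec61 channel, had the highest mean (3466) and Ssr1 of the same complex the lowest (924). The length chosen matters here: with the median transcript length, 8 of 32 values were more than 1.5 times higher, and Ssr1 moved most, by 5.43 times, to 5019. The place of Ssr1 within translocation and the order of the top 3 members therefore rest on the transcript model. Calr, Hspa5 and Hsp90b1 then had 8334, 8918 and 9926 per kilobase, so that Hsp90b1 and not Calr stood highest. The sensors kept their order but lay farther apart.

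**Figure D1:**
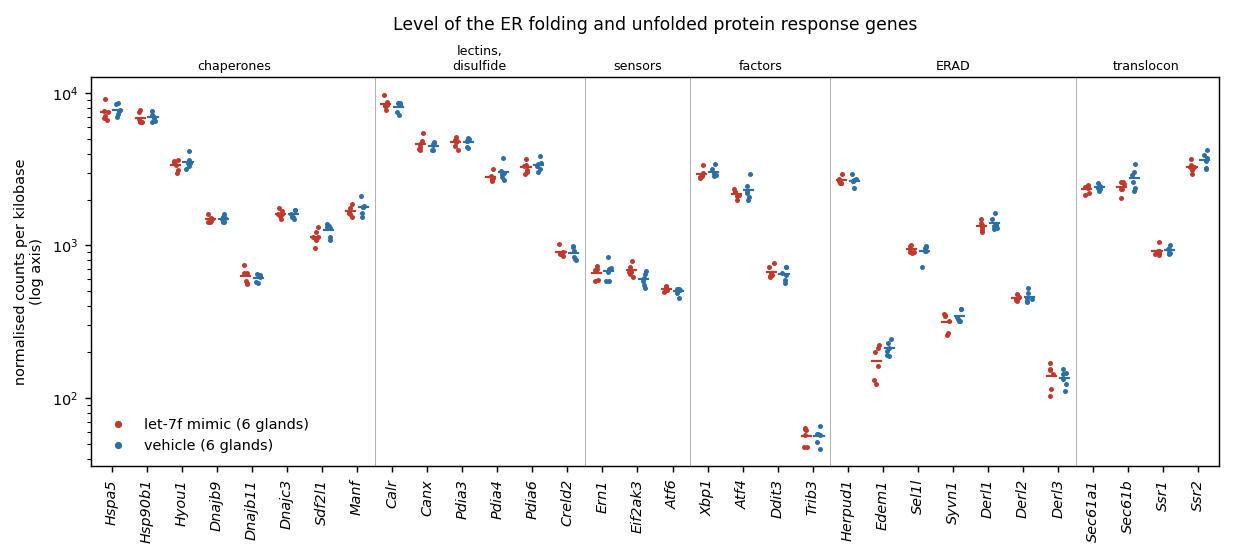
Level of each of the 32 genes in normalised counts per kilobase (log axis), 1 point per gland, 6 let-7f mimic glands on the left and 6 vehicle glands on the right of each gene, with the group mean as a line. Genes are ordered by role; Calr, Hspa5 and Hsp90b1 stand highest, Trib3 lowest, and the groups overlap for every gene.

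Mimic and vehicle glands were compared to ask whether the folding machinery of the adult gland differed after zygotic injection. None of the 32 genes passed an adjusted p of 0.05 in limma's test, and neither did any of the 18390 genes tested (0%). At an unadjusted p under 0.05 stood 2 of 32 members, against 879 of all genes (4.78%). For no member did the 6 mimic glands lie wholly outside the vehicle glands, a separation that 22 of all genes showed (0.12%). edgeR on the recovered reads likewise called no gene, and DESeq2 called 10 genes, none of them a member.

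The differences were small and the intervals narrow. Over the members the median log2 fold change of mimic over vehicle was -0.02, against -0.00053 over all genes, with 12 positive and 20 negative. Fold changes ran from 0.809 (Edem1) to 1.15 (Eif2ak3). The 95% interval lay within 1.5-fold in both directions for 31 of 32 members (96.9%), against 77.7% of all genes. Edem1 was the member whose interval reached beyond it, at -0.61. The median standard error (SE) of the log2 fold change was 0.07 for members and 0.11 for all genes.

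**Figure D2:**
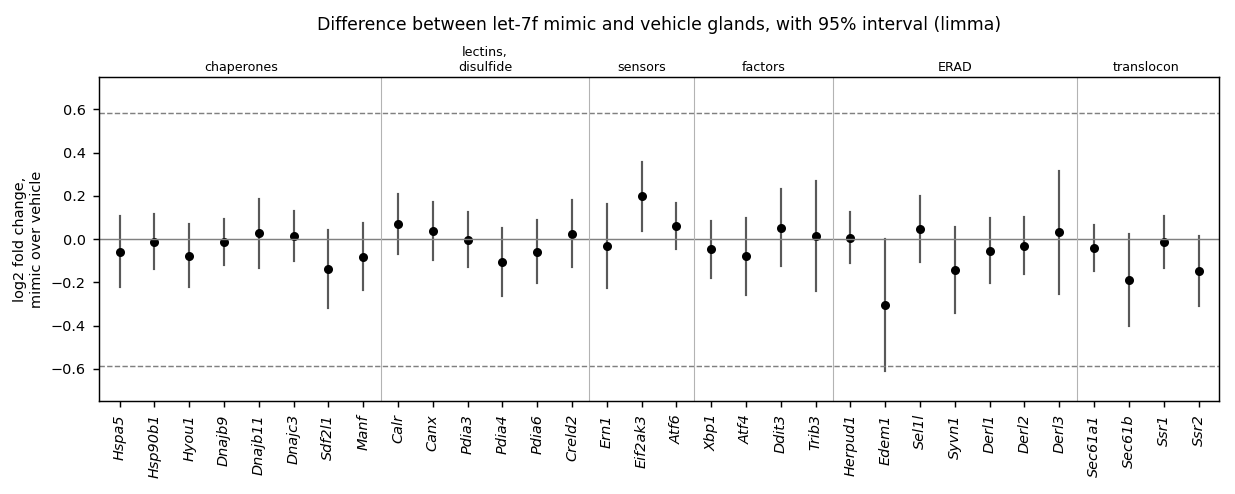
Log2 fold change of mimic over vehicle glands for each member, with limma's 95% interval (6 glands per group). The dashed lines mark 1.5-fold; every interval but that of Edem1 lies between them, and those of Eif2ak3 and Edem1 do not reach 0.

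Among the chaperones, 2 fold changes were positive and 6 negative, with a median of -0.04. Hspa5 had 24448, 26785 and 33467 normalised counts as lowest, median and highest of the mimic glands, against 25702, 28181 and 31474 in vehicle glands. Most mimic glands were on the low side, 5 of 6 below the vehicle mean, but mimic 1 was the highest gland of all and the groups overlapped throughout. Its log2 fold change was -0.06 (SE 0.08, adjusted p = 0.976 in limma), or 0.028 with the ribosomal protein level as a covariate, an analysis chosen after seeing the data.

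Sdf2l1, a partner of the DnaJ cochaperones, had 1066, 1260 and 1455 normalised counts in mimic glands and 1198, 1448 and 1528 in vehicle glands. Only 1 of 6 mimic glands was above the vehicle mean, yet the ranges overlapped, and the log2 fold change of -0.14 (SE 0.08) had an adjusted p of 0.976 in limma. The remaining chaperones were Hsp90b1, Dnajb9, Dnajc3 and Dnajb11 with Hyou1, a nucleotide exchange factor for BiP, and Manf, a secreted factor that binds BiP. Their log2 fold changes lay between -0.08 (Manf) and 0.03 (Dnajb11).

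Of the lectins and disulfide enzymes, 3 were positive and 3 negative. Pdia4, a disulfide isomerase, had 6361, 6636 and 7589 normalised counts in mimic glands against 6403, 7127 and 8961 in vehicle glands. The groups overlapped and vehicle 4 alone held the top value. With a log2 fold change of -0.11 (SE 0.07) it was the lowest of this role, and Calr with 0.07 (SE 0.06) the highest. Canx, the membrane-bound partner of Calr, and the isomerases Pdia3 and Pdia6 lay between them, as did Creld2.

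The sensors included the member of smallest p. Eif2ak3 (PERK), the kinase that slows translation under ER stress, had 2823, 3016 and 3555 normalised counts in mimic glands and 2363, 2695 and 3051 in vehicle glands. All 6 mimic glands lay above the vehicle mean, although vehicle 1, the highest vehicle gland, exceeded 4 of them. The log2 fold change was 0.20 (SE 0.07), with an unadjusted p of 0.018 and an adjusted p of 0.976 in limma, so it did not pass.

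Atf6, whose protein is cut in the Golgi to free a transcription factor, was steadier, with 3610, 3757 and 3915 normalised counts in mimic glands and 3258, 3703 and 3777 in vehicle glands. Here 5 of 6 mimic glands were above the vehicle mean, within an overlapping range. Its log2 fold change was 0.06 (SE 0.05, adjusted p = 0.976 in limma). Ern1, the nuclease that splices Xbp1 mRNA, had a log2 fold change of -0.03 (SE 0.09).

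The factors downstream of the sensors showed no difference beyond their spread. Xbp1 had 5887, 6108 and 7147 normalised counts in mimic glands against 6074, 6323 and 7293 in vehicle glands, overlapping almost fully (log2 fold change -0.05, SE 0.06). Atf4, the factor translated when PERK is active, had 3404, 3799 and 4033 in mimic glands and 3453, 3848 and 5048 in vehicle glands, where vehicle 4 stood above the rest (log2 fold change -0.08, SE 0.08, or 0.0045 with the ribosomal protein level as a covariate). Ddit3 (CHOP), the factor tied to cell death under lasting stress, had 551, 577 and 683 in mimic glands and 502, 579 and 642 in vehicle glands, with medians almost the same (log2 fold change 0.05, SE 0.08). Trib3 differed by 0.01 on the log2 scale (SE 0.12). For all 4 the adjusted p in limma was between 0.976 and 0.994.

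Within ER-associated degradation, 3 members were positive and 4 negative. Edem1, a mannosidase-like protein that marks misfolded glycoproteins for disposal, had 715, 1048 and 1293 normalised counts in mimic glands, against 1094, 1212 and 1418 in vehicle glands. It was low in mimic 6, mimic 2 and mimic 5, which lay below every vehicle gland, while the other 3 mimic glands were inside the vehicle range. The log2 fold change was -0.30 (SE 0.14), with an unadjusted p of 0.049 and an adjusted p of 0.976 in limma, so it did not pass.

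Syvn1, the ubiquitin ligase HRD1 of this pathway, had 898, 1152 and 1225 normalised counts in mimic glands and 1105, 1165 and 1330 in vehicle glands, with medians close together and a lower tail in mimic glands. Its log2 fold change was -0.14 (SE 0.09, adjusted p = 0.976 in limma). Sel1l, the adaptor of HRD1, with Herpud1 and the derlins Derl1, Derl2 and Derl3, lay between -0.05 (Derl1) and 0.05 (Sel1l).

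All 4 translocation genes had negative log2 fold changes, from -0.19 to -0.01. Sec61b, the small beta subunit of the channel, had 1155, 1374 and 1482 normalised counts in mimic glands and 1278, 1554 and 1942 in vehicle glands. None of the 6 mimic glands exceeded the vehicle mean, but 3 vehicle glands lay inside the mimic range. The log2 fold change was -0.19 (SE 0.10), with an unadjusted p of 0.079 and an adjusted p of 0.976 in limma.

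Ssr2 had 3485, 3892 and 4412 normalised counts in mimic glands, against 3802, 4363 and 5022 in vehicle glands. In this gene 5 of 6 mimic glands were below the vehicle mean, within overlapping ranges, and the log2 fold change was -0.15 (SE 0.08, unadjusted p = 0.075, adjusted p = 0.976 in limma). With the ribosomal protein level as a covariate the log2 fold changes were -0.068 for Sec61b and -0.050 for Ssr2. Sec61a1, the pore of the channel, and Ssr1 differed by -0.04 (SE 0.05) and -0.01 (SE 0.06). Prl, the hormone on which the relations below are read, had a fold change of the same sign: 323446, 372171 and 508589 normalised counts in mimic glands and 379880, 547121 and 640604 in vehicle glands. Every mimic gland was below the vehicle mean for Prl, with overlap, at a log2 fold change of -0.38 (SE 0.14, unadjusted p = 0.018, adjusted p = 0.976 in limma). Gh had 2814350, 3174710 and 3640970 in mimic glands and 2457500, 3140410 and 4118190 in vehicle glands, with the mimic glands inside the vehicle range and a log2 fold change of 0.02 (SE 0.13).

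A let-7 seed match, CTACCTC, occurred in the 3′ UTR of 3 of the 32 members (9.38%) and of 1588 of 15436 genes tested with a UTR in the annotation (10.3%). The 3 sites are shown with the match in capitals, since one of them is in Edem1. Edem1 is the member with the most negative fold change, while Dnajc3 (0.01, SE 0.05) and Dnajb11 (0.03, SE 0.07) lay close to 0 on the log2 scale.
Edem1: tgaagtcttgCTACCTCtttgct
Dnajc3: ccagatctagCTACCTCctaact
Dnajb11: ttcttttccaCTACCTCtggcag

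Each member's log2 level was set against those of Gh and Prl, which encode secreted hormones of the gland, across the 12 glands. In all, 95 relations of a member to Gh, Prl or Hspa5 were computed. Gh and Prl themselves went together only loosely (r = 0.29, permutation p = 0.36, Spearman's rho = 0.24, permutation p = 0.44, r = -0.01 in mimic glands, 0.61 in vehicle glands and 0.30 without the 2 glands farthest from the median of Gh).

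For Gh, no member passed an adjusted p of 0.05 in limma, nor did any of the 18389 genes (0%). At an unadjusted p under 0.05 stood 7 of 32 members (21.9%), against 10.2% of all genes. The direction was shared: r was positive for all 32 members, against 48.9% of all genes, with a median of 0.42, against -0.01 for all genes. Positive r prevailed in similar lists without members too. The median was 0.52 for further genes of glycosylation and translocation (21 of 25 positive) and 0.33 for further chaperones and folding enzymes (22 of 24). For degradation it was 0.33 (15 of 18), for ATF4 and CHOP targets with related genes 0.37 (18 of 23) and for signalling 0.09 (12 of 20). The 7 somatotroph markers beside Gh were all positive (median 0.26). Members share glands, depth and normalisation, so they are not separate pieces of evidence. Positive values were found for 31 of 32 within the mimic glands alone, 31 of 32 within the vehicle glands alone and 30 of 32 without vehicle 3 and vehicle 4, the glands of lowest and highest Gh. Without vehicle 4 alone, 27 of 32 were positive and the median r was 0.33. The exceptions within a group were Herpud1 in mimic glands and Hsp90b1 in vehicle glands.

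By role, the factors had the highest median r with Gh over all glands (0.63 over 4 genes), but in mimic glands theirs was 0.37, below the chaperones (0.70), the folding enzymes (0.59) and the degradation genes (0.44). The sensors had the lowest median (0.15 over 3 genes), although the sensor Atf6 had the highest r of any member (r = 0.74, permutation p = 0.0038, rho = 0.78, permutation p = 0.0046, adjusted p = 0.463 in limma). Its r was 0.91 in mimic glands, 0.78 in vehicle glands and 0.88 without the 2 farthest glands. Atf4 had the smallest unadjusted p of the members in limma (0.011), with r = 0.68 (permutation p = 0.013) but rho = 0.48 (permutation p = 0.11). Its slope was 0.47 log2 units per log2 unit of Gh (SE 0.16, adjusted p = 0.341 in limma), or 0.23 without vehicle 4, with r = 0.46 in mimic glands, 0.77 in vehicle glands and 0.68 without the 2 farthest glands. Hyou1 had r = 0.69 (permutation p = 0.013) and rho = 0.64 (permutation p = 0.03), with r = 0.70 in mimic glands, 0.79 in vehicle glands and 0.55 without the 2 farthest glands.

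Manf had r = 0.68 (permutation p = 0.015) and rho = 0.56 (permutation p = 0.063), with r = 0.69 in mimic glands, 0.75 in vehicle glands and 0.81 without the 2 farthest glands. Pdia3 had r = 0.67 (permutation p = 0.019) and rho = 0.70 (permutation p = 0.014), with r = 0.74 in mimic glands, 0.73 in vehicle glands and 0.55 without the 2 farthest glands. For each of these genes r was positive in both groups, yet none passed the test over all genes. The adjusted p in limma was 0.351 for Hyou1, 0.364 for Manf and 0.442 for Pdia3. Without vehicle 4 the slope on Gh was 0.24 for Hyou1, against 0.38 over all glands, and 0.25 for Manf, against 0.40. The posterior lobe level moved the other way from Gh (r = -0.61, permutation p = 0.033, rho = -0.61, permutation p = 0.039, r = -0.12 in mimic glands, -0.74 in vehicle glands and -0.49 without the 2 farthest glands). With that level as a covariate no member was called either.

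**Figure D3:**
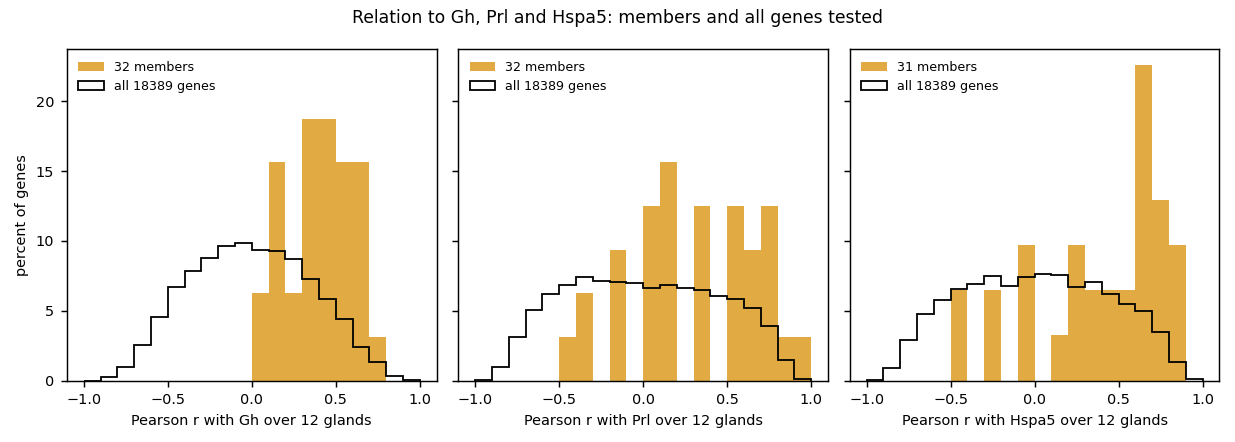
Distribution of Pearson's r with Gh, Prl and Hspa5 across the 12 glands, as percent of genes in bins of r, for the members (filled) and for all 18389 genes tested (outline). The members' medians of 0.42, 0.33 and 0.57 lie to the right of those of all genes, -0.01, -0.01 and 0.01.

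For Prl, 3 of 32 members passed an adjusted p of 0.05 in limma (9.38%), all with a positive slope, against 485 of 18389 genes (2.64%), 264 of them positive (1.44%). They were Ssr2, Sec61b and Atf4. At an unadjusted p under 0.05 stood 9 members (28.1%), against 23.6% of all genes, which is near the background. The median r was 0.33, against -0.01 for all genes, and 26 of 32 were positive. It was 0.17, with 20 of 32 positive, without mimic 3 and vehicle 4, the glands farthest from the median of Prl. It was 0.14 with the ribosomal protein level as a covariate and 0.13 with quantile normalization.

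Ssr2 followed Prl most closely. In the 6 mimic glands it ran from 3485 to 4412 normalised counts and in the 6 vehicle glands from 3802 to 5022, with mimic 1 and vehicle 4 highest in their groups for both Ssr2 and Prl. Over the 12 glands r was 0.92 (permutation p = 1e-05, the smallest that the permutations can give) and rho 0.92 (permutation p = 0.00012). The slope was 0.43 (SE 0.07, adjusted p = 0.0233 in limma), with r = 0.86 in mimic glands, 0.95 in vehicle glands and 0.91 without the 2 farthest glands.

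Sec61b had r = 0.87 (permutation p = 9e-05) and rho = 0.85 (permutation p = 0.00066), with a slope of 0.54 (SE 0.10, adjusted p = 0.0325 in limma). Its r was 0.78 in mimic glands, 0.89 in vehicle glands and 0.78 without the 2 farthest glands. Both genes belong to the machinery through which prolactin, as a secreted protein, enters the ER. The other 2 translocation genes were not called. Sec61a1, the pore of the channel, had r = 0.19 with Prl (-0.06 in mimic glands, 0.12 in vehicle glands, adjusted p = 0.767 in limma). For Ssr1 r was 0.56 (0.61 in mimic glands, 0.74 in vehicle glands, adjusted p = 0.245 in limma). Atf4 had r = 0.79 (permutation p = 0.00055) and rho = 0.81 (permutation p = 0.0022), with a slope of 0.37 (SE 0.09) and an adjusted p of 0.0498 in limma, at the threshold. For Atf4, r was 0.86 in mimic glands, 0.87 in vehicle glands and 0.68 without the 2 farthest glands. Manf came next and did not pass, with r = 0.78 (permutation p = 0.0025), rho = 0.76 (permutation p = 0.0055), a slope of 0.31 (SE 0.08) and an adjusted p of 0.0612 in limma. Its r was 0.67 in mimic glands, 0.86 in vehicle glands and 0.62 without the 2 farthest glands.

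These 3 calls were not stable, and that of Atf4 was the least so. Of 24 alternatives, 15 kept the call of Ssr2, 12 that of Sec61b and 3 that of Atf4. None of the 3 calls was made with 1 of mimic 4, mimic 5, vehicle 4 or vehicle 5 left out, and 1 was made without mimic 3 or mimic 6. With single glands left out the slopes stayed positive. Without mimic 4 they were 0.40 for Ssr2, 0.61 for Sec61b and 0.39 for Atf4, and without vehicle 4 they were 0.39, 0.45 and 0.24. With quantile normalization they fell to 0.15, 0.14 and 0.13, from 0.43, 0.54 and 0.37 as first fitted. The ribosomal protein level moved with Prl across glands (r = 0.82, permutation p = 0.0012, rho = 0.83, permutation p = 0.0017, r = 0.97 in mimic glands, 0.75 in vehicle glands and 0.76 without the 2 farthest glands). It also moved with Ssr2 (r = 0.92, permutation p = 6e-05, rho = 0.90). That r was 0.86 without vehicle 3 and vehicle 4, the glands farthest from the median ribosomal protein level. The same held for Sec61b (r = 0.87, permutation p = 0.00021, rho = 0.86, and r = 0.74 without them) and Atf4 (r = 0.73, permutation p = 0.0049, rho = 0.82, and r = 0.74 without them). With that level as a covariate, the slopes on Prl were 0.24 for Ssr2, 0.30 for Sec61b and 0.27 for Atf4, with adjusted p of 0.573, 0.716 and 0.752 in limma.

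Some markers of other pituitary cells moved with Prl as well, but no list moved as one. The 8 markers of corticotrophs and melanotrophs, all detected, had a median r of -0.67 with Prl, and 3 of 8 were positive. Pcsk2 (r = -0.79, adjusted p = 0.0376 in limma) and Oacyl (r = -0.76, adjusted p = 0.0430) were called with a negative slope. The summed level of the 8 markers ran from 140672 to 647758 normalised counts in mimic glands and from 52647 to 434710 in vehicle glands. The 10 markers of gonadotrophs and thyrotrophs, all detected, had a median r of 0.60, and 8 of 10 were positive. Nr5a1 (r = 0.78) and Tshb (r = 0.76) were called with a positive slope (adjusted p = 0.0454 each in limma). The sum of the 10 markers ran from 102197 to 138874 in mimic glands and from 102297 to 241708 in vehicle glands. Among the lactotroph markers Akr1c14 (r = 0.76, adjusted p = 0.0486 in limma) was called positive and Drd2, the dopamine receptor of these cells, negative (r = -0.79, adjusted p = 0.0397 in limma). Stem and progenitor markers had a median r of 0.22 (7 of 10 positive). Of these, Aldh1a2 was called positive (r = 0.82, adjusted p = 0.0417 in limma) and Prrx1 negative (r = -0.77, adjusted p = 0.0460 in limma). The remaining marker lists had no called gene, with medians from -0.43 (posterior lobe) to 0.48 (erythrocytes). The part of cell composition in the members' relation to Prl was not tested.

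**Figure D4:**
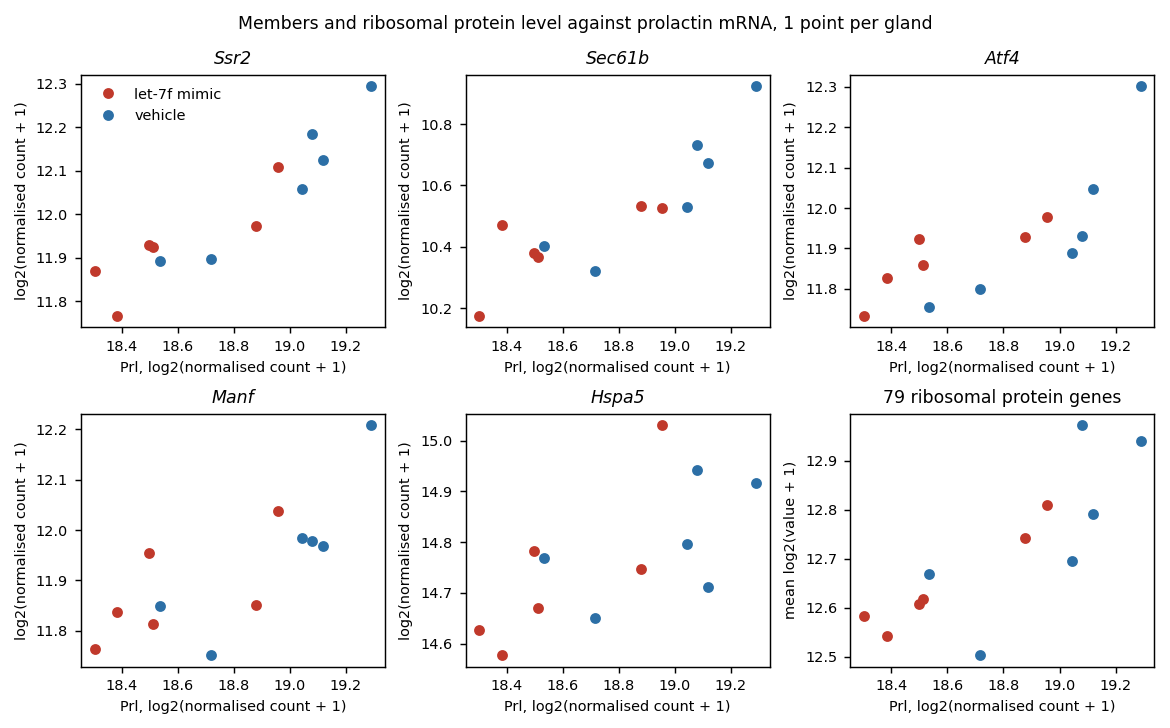
Log2 level of Ssr2, Sec61b, Atf4, Manf and Hspa5, and the mean log2 level of 79 ribosomal protein genes, against the log2 level of Prl, 1 point per gland (6 let-7f mimic, 6 vehicle). All panels run upward, r = 0.92 for Ssr2 and r = 0.82 for the ribosomal protein genes, and vehicle 4 holds the highest Prl.

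Roles were not tested against each other in their relation to Prl. Over the 12 glands all 4 translocation genes, all 4 factors, all 8 chaperones and all 6 folding enzymes had positive r, with medians of 0.72, 0.46, 0.47 and 0.12. Without mimic 3 and vehicle 4, 4 of 4, 2 of 4, 6 of 8 and 3 of 6 of them were positive. The 3 sensors were all negative, between -0.40 (Eif2ak3) and -0.15 (Ern1), and the degradation genes divided into 4 positive and 3 negative (Sel1l, Syvn1 and Derl3). Within groups, 2 of 3 sensors and 3 of 7 degradation genes were positive in mimic glands, and 1 of 3 and 5 of 7 in vehicle glands. With those 2 glands left out, 1 of 3 sensors and 4 of 7 degradation genes were positive. No member's slope on Gh or on Prl differed between mimic and vehicle glands at an adjusted p of 0.05 in limma, and no gene did (0% each). At an unadjusted p under 0.05 the slope on Gh differed for 0 of 32 members, against 3.66% of all genes. Syvn1 with Prl was the member at an unadjusted p under 0.05 (p = 0.021), where 5.33% of all genes stood, at r = -0.96 within the mimic group (exact permutation p = 0.017) and r = -0.09 within the vehicle group (exact permutation p = 0.85).

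**Figure D5:**
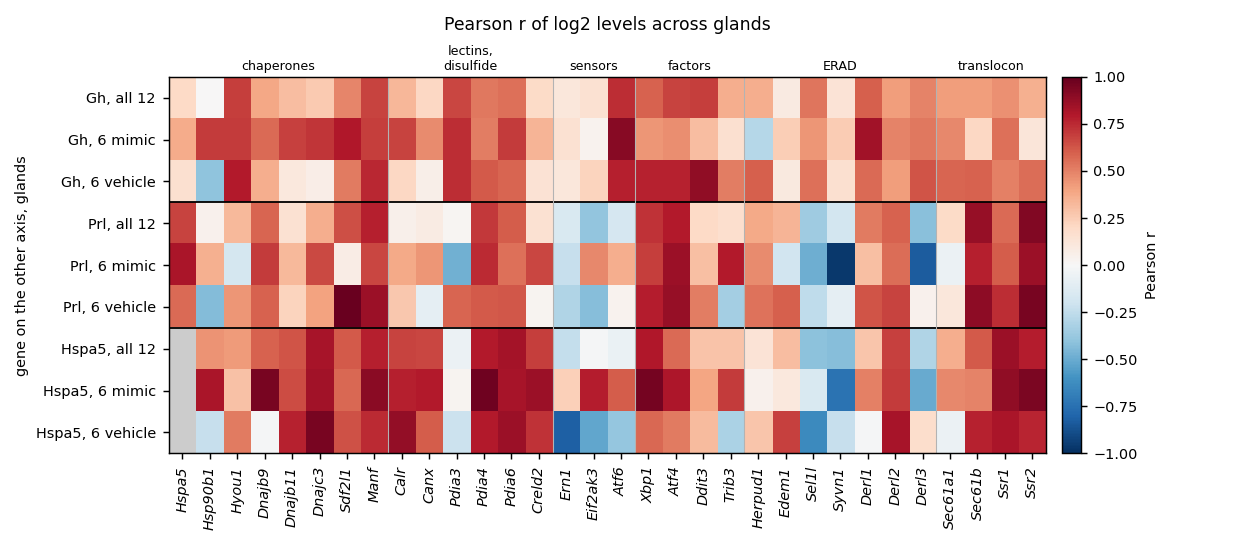
Pearson's r of each member's log2 level with that of Gh, Prl and Hspa5, over all 12 glands and within the 6 mimic and the 6 vehicle glands (colour scale from -1 to 1; grey, not defined). The Gh rows are positive almost throughout, while over all 12 glands the 3 sensors, Sel1l, Syvn1 and Derl3 are negative with Prl and Hspa5. Within the mimic glands the 3 sensors are positive with Hspa5, and Eif2ak3 and Atf6 with Prl.

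Since BiP is the common reporter of ER load, the members were also read against Hspa5 itself. None of the other 31 passed an adjusted p of 0.05 in limma, where 1 of 18389 genes did (0.00544%): Fn1, which encodes the secreted matrix protein fibronectin (r = 0.95, slope 2.83, SE 0.31, adjusted p = 0.00636). At an unadjusted p under 0.05 stood 15 of 31 members (48.4%), against 21.6% of all genes. The median r was 0.57, against 0.01 for all genes, with 24 of 31 positive. Without mimic 1 and vehicle 3, the farthest glands, the median was 0.44 with 29 of 31 positive. A positive median was not particular to the members. Among similar lists without members it was 0.60 for 25 genes of glycosylation and translocation, 0.58 for 24 chaperones and folding enzymes and 0.44 for 18 degradation genes. For 23 ATF4 and CHOP targets with related genes it was 0.13, and for 20 signalling genes 0.01. Among cell markers the median over all glands was 0.74 for 6 erythrocyte markers, 0.50 for 10 markers of gonadotrophs and thyrotrophs and 0.45 for 11 immune markers. The other marker lists lay between -0.26 (corticotrophs and melanotrophs) and 0.36 (stem and progenitor cells). The part of cell composition in the relation to Hspa5 was not tested.

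Pdia6, a disulfide isomerase that also acts on the sensors, had the smallest unadjusted p of the members in limma (0.00091). It had r = 0.83 (permutation p = 0.00084), rho = 0.86 (permutation p = 0.00066) and a slope of 0.72 (SE 0.17, adjusted p = 0.067 in limma). Its r was 0.82 in mimic glands, 0.85 in vehicle glands and 0.84 without the 2 farthest glands. Pdia4 had r = 0.79 (permutation p = 0.0017) and rho = 0.93 (permutation p = 5e-05), with r = 0.97 in mimic glands, 0.79 in vehicle glands and 0.88 without the 2 farthest glands. Both isomerases held to Hspa5 in each group of 6.

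Ssr1 had the highest r with Hspa5, 0.85 (permutation p = 0.00049), and rho 0.78 (permutation p = 0.0038), with r = 0.89 in mimic glands, 0.82 in vehicle glands and 0.77 without the 2 farthest glands. Ssr2 had r = 0.79 (permutation p = 0.0024) and rho = 0.78 (permutation p = 0.0037), with r = 0.94 in mimic glands, 0.76 in vehicle glands and 0.81 without the 2 farthest glands. The adjusted p in limma was 0.0714 for Pdia4, 0.0721 for Ssr2 and 0.0768 for Ssr1. The ribosomal protein level was related to Hspa5 as well (r = 0.81, permutation p = 0.0014, rho = 0.81, permutation p = 0.0018, r = 0.88 in mimic glands, 0.89 in vehicle glands and 0.81 without the 2 farthest glands). With it as a covariate the members' median r was 0.31.

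Some members had negative r with Hspa5. Pdia3 (r = -0.06), Sel1l (-0.41), Syvn1 (-0.42), Derl3 (-0.30) and the 3 sensors (-0.24 to -0.01) were below 0 over the 12 glands. Without mimic 1 and vehicle 3, Pdia3 (0.10), Sel1l (0.11), Syvn1 (0.02), Derl3 (0.04) and Atf6 (0.26) were positive, while Ern1 (-0.20) and Eif2ak3 (-0.31) stayed negative. The sensors had r of opposite sign in the groups. Ern1, Eif2ak3 and Atf6 had r of 0.24, 0.78 and 0.61 with Hspa5 in mimic glands, and of -0.81, -0.52 and -0.39 in vehicle glands. The slope difference had an unadjusted p of 0.023 for Ern1 and 0.04 for Eif2ak3, and an adjusted p of 0.775 for both in limma, so no difference passed. No gene's slope on Hspa5 was called different (0%), and 6.39% of all genes stood at an unadjusted p under 0.05.

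Members with and without the promoter element shown above overlapped in these measures. The 8 genes that carry it beside Hspa5 itself had a median r with Hspa5 of 0.67, from -0.42 (Syvn1) to 0.83 (Pdia6). The 17 genes with a promoter sequence and no match had a median of 0.57, from -0.41 (Sel1l) to 0.85 (Ssr1). With the hormones the order was the other way. The median r with Gh was 0.21 (0.01 to 0.55) for the 9 genes with the element and 0.42 (0.09 to 0.69) for the 17 without. With Prl it was 0.08 (-0.42 to 0.68) and 0.38 (-0.40 to 0.87). Between mimic and vehicle glands the median log2 fold change was 0.01 for the 9 genes with the element and -0.02 for the 17 without.

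Other genes of the same pathways, in lists that do not contain the members, were read in the same way. No gene of any list was called between mimic and vehicle glands. The median log2 fold change was -0.06 for 24 further chaperones and folding enzymes, -0.02 for 25 genes of glycosylation and translocation and -0.01 for 18 of degradation. It was -0.004 for 23 targets of ATF4 and CHOP with related genes, and -0.002 for 20 genes of signalling. The smallest p among the chaperones belonged to Prdx4, a peroxiredoxin of the ER (-0.23, SE 0.11), Sdf4 (-0.14, SE 0.08) and Txndc11 (-0.14, SE 0.07).

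In glycosylation and translocation these were Rpn2, a subunit of oligosaccharyltransferase (-0.16, SE 0.07), Gfpt1, the entry enzyme of the hexosamine pathway (0.10, SE 0.06), and Ssr4 (-0.14, SE 0.08). In degradation they were the lectin Os9 (-0.07, SE 0.06), the selenoprotein Selenos (-0.06, SE 0.06) and the ubiquitin-conjugating enzyme Ube2j1 (-0.07, SE 0.08). Among ATF4 and CHOP targets and related genes they were Shmt2, a mitochondrial enzyme of the serine pathway (-0.15, SE 0.07), Ppp1r15b, a subunit of the phosphatase that acts against PERK (-0.09, SE 0.05) and Nupr1 (0.32, SE 0.17). In signalling they were Mbtps2, the protease that cuts ATF6 in the Golgi (0.28, SE 0.10), the ATF6 relative Atf6b (-0.29, SE 0.14) and the membrane-bound factor Creb3 (0.11, SE 0.06). Each had an adjusted p of 0.976 in limma.

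With Prl, 5 of the 24 further chaperones and folding enzymes were called (Rcn1, Sdf4, Selenof, Prdx4 and Hspa13), all with a positive slope, where 1.44% of all genes were. The same held for 4 of the 25 genes of glycosylation and translocation (Sec61g, Ssr4, Rpn2 and Ostc) and for 1 of the 18 of degradation (Rnf139). Prdx4 had the largest r of these with Prl, 0.92, with a slope of 0.64 (SE 0.09, adjusted p = 0.0209 in limma). Sec61g, the gamma subunit of the channel, had r = 0.81 with a slope of 0.56 (SE 0.12, adjusted p = 0.0397 in limma). No gene of any list was called with Prl with the ribosomal protein level as a covariate, with the replicate number as a block or without mimic 4, where 0 of all genes were, and 1 of all genes was called without vehicle 4. None of the 23 ATF4 and CHOP targets and related genes and none of the 20 signalling genes was called with Prl. Median r with Prl was 0.49 for the further chaperones, 0.53 for glycosylation and translocation and 0.27 for degradation, against 0.33 for the members. It was 0.24 for the ATF4 and CHOP targets and related genes and -0.14 for signalling. With Gh and with Hspa5 none of these 5 lists had a called gene.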

How the data were processed

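The submitters' processing notes name Trimmomatic 0.39, kallisto 0.50.1, DESeq2 1.48.2, FastQC 0.12.1 and MultiQC 1.28, and the build GRCm39. The authors deposited a signal per gene, normalised read counts in 12 columns. Multiplied by the library's size factor (0.817 to 1.17), 100% of values came out whole within 0.001, and these are called recovered reads. A row with no gene name (0.0359% to 0.0567% of reads) was left out. The closest of 66 library pairs (mimic 3 and mimic 5) differed 19.5 times more than counting error.

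Tests used limma 3.58.1 in R 4.3.3 with a variance trend, on log2(value + 1), for the 18390 genes that reached 10 in 6 or more libraries. Fold changes are on that scale, which understates low genes. Relations used log2 Gh, Prl or Hspa5 as the only term, and slope differences its interaction with group. P-values are two-sided and adjusted by Benjamini-Hochberg over all genes. Correlations have 100000 permutations, exact within groups of 6. The labels name no separate litters, so p-values measure the spread between these glands. edgeR 4.0.16 and DESeq2 1.42.0 ran on the recovered reads as alternatives. The fits were tested on simulated data.

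Transcript lengths and UTRs came from GENCODE M21, matched by symbol, and promoters and the microRNA from RefSeq, whose build is GRCm38, so no coordinate is on the authors' build. The members and lists were chosen with earlier results of these data known. Named were Hspa5, Xbp1, Atf4 and Ddit3, the 8 members of smallest p between groups, the 4 of smallest p in each relation, the highest and lowest per kilobase of each role, any called member and the 3 genes of smallest p of each other pathway list. Beyond that rule, further members are named after their values were seen.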

Additional observations from a re-analysis of the deposited data

Results flagged for a closer look

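In 6 of 98 sets of 6 glands (49 genes in both groups), 1 gland stood far from the other 5. Chance alone would give about 1 in 20, here 4.9. Creld2 had 1406 normalised counts in mimic 1, where the other mimic glands lay between 1161 and 1229. In the same gland Ssr1 had 9828, against 8107 to 8615 in the others. Txndc11 had 3717 in mimic 3, against 3197 to 3331. Pdia4 had 8961 in vehicle 4, against 6403 to 7339 in the other vehicle glands. Sel1l was low in vehicle 3, with 4583 against 5782 to 6215. Selenos was low in vehicle 2, with 1418 against 1615 to 1733.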

How the results depend on the processing

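Of 1439 values recomputed for 63 results, 1339 were unchanged. A tested value then kept its direction and call, a count stayed within 1.5 times and a median within its spread over glands. Another 46 values, counts or medians, moved. The slopes of Ssr2, Sec61b and Atf4 on Prl missed the threshold in 42 recomputed values, and 12 log2 fold changes changed sign. No member was called between groups, with Gh or with Hspa5 under any alternative, nor any slope difference of a member. Between groups DESeq2 called 10 genes and the others 0. For Prl, 485 genes and 3 members were called. Genes called were 301 with TMM, 11 with quantile normalization, 1157 with the posterior lobe level as covariate, 188 with group as a term, 39 without the 2 farthest glands, and 0 with the ribosomal protein level or without vehicle 3 and 4 (both added after seeing the data). Members called were 1 with group as a term and 0 with quantile normalization, the ribosomal level, without the 2 farthest glands or without vehicle 3 and 4. Leaving out 1 gland gave 0 to 695 genes and 0 to 3 members for Prl, 0 to 4 genes for Hspa5 and 0 to 1 for the slope difference on Prl. For Hspa5, 30 genes were called with the posterior lobe covariate and 0 with quantile normalization, the ribosomal level, without the 2 farthest glands or without vehicle 3 and 4. Same-numbered glands did not deviate together (r from -0.15 to 0.09, 1 of 6 best with its own number), and with the replicate block 0 genes and 0 members were called for Prl and 0 genes for Hspa5. The log2 fold change changed sign for Hspa5 (0.028 and 0.0075), Atf4 (0.0045 and 0.0022) and Ube2j1 (0.018 and 0.020) with the ribosomal level and without vehicle 3 and 4, and for Gh with edgeR (-0.00043), DESeq2 (-0.0015) and over glands left out (-0.050 to 0.10). Leaving out 1 gland gave -0.12 to -0.03 for Hspa5 and -0.46 to -0.31 for Prl. The median level per kilobase over the members was 1557, or 2663 with median transcript lengths. The causes were not tested. Quantile normalization gave no value for Gh, which ranks first in every gland. The intervals given rest on the spread between 6 glands per group, which is wider than counting error at this depth (chi-square per degree of freedom of 19.5 for the 2 most alike libraries).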
